A study of Mus musculus with 7 samples.

Results

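The genes described here are the neurexins *Nrxn2* and *Nrxn3*, the neuroligins *Nlgn1*, *Nlgn2* and *Nlgn3*, and the leucine-rich repeat transmembrane proteins *Lrrtm1*, *Lrrtm2*, *Lrrtm3* and *Lrrtm4*. They were taken by gene symbol and are 9 of the 33696 genes of the matrix, in 8917 of its 10047 barcodes, those with 2000 to 8000 detected genes. Other genes of these families were not analysed here. Neurexins are adhesion proteins of the presynaptic membrane, and neuroligins and LRRTMs are postsynaptic membrane proteins that bind them across the synaptic cleft. Neuroligin 1 is best known from excitatory synapses, neuroligin 2 from inhibitory synapses, and the LRRTMs from excitatory synapses. Oligodendrocyte progenitor cells (OPCs) receive synapses from neurons in the brain, while the cells measured here were grown in culture.

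The study injected tumorigenic OPCs into mouse brains to follow gliomas from an early to a late stage, and lists 7 samples. The sample used here is the cultured BB-p53n OPCs before injection, measured as 1 library of nuclei by snRNA-seq. The methods describe them as OPCs of either sex, isolated with an antibody to CD140a (PDGFRα) from *Trp53* fl/fl C57BL/6 pups late in the first postnatal week, in which a PDGFB-IRES-CRE retrovirus deleted *Trp53* and overexpressed PDGFB. The 3 early-stage and 3 late-stage tumor samples were not analysed here, and no OPCs without the deletion or the retrovirus were compared, so every level below belongs to mutant cells in culture with no control. With 1 library there is no replicate. All differences are therefore between groups of nuclei of that library, they have no test, and their 95% intervals cover counting error only.

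The kept nuclei held 141138093 UMIs, each of which tags a captured transcript, with a median of 13771 UMIs per nucleus. Levels are CPM, in which the UMIs of a gene are scaled by those of all genes in the same nuclei. The nuclei fell into 8 re-derived clusters, numbered 0 to 7 by size, of between 1810 and 182 nuclei. All 7 OPC markers examined had at least 20 CPM in the library, among them *Lhfpl3* at 1953 CPM and *Olig1* at 618 CPM. All 7 were lowest in cluster 1, where *Pdgfra* was at 19.4 CPM and *Sox10* at 5.87 CPM. *Olig1* and *Olig2* were nearer to the other nuclei, at 520 and 212 CPM there, or 0.817 and 0.688 of their levels elsewhere. The OPC label thus holds less well for that cluster, though not equally by all markers. Its summed OPC marker level was 918 CPM, against up to 4884 CPM in cluster 0. Of 10 neuronal markers, 5 were below 1 CPM, including *Slc17a7*, *Gad2* and *Stmn2*, and only *Syt1* reached 20 CPM, at 109 CPM. The summed neuronal marker level was lowest in cluster 1, at 41.0 CPM, and highest in cluster 3, at 259 CPM. By cluster, *Gad1* was at 25.4 CPM in cluster 7 and at most 3.97 CPM elsewhere, and *Rbfox3* was at 15.8 CPM in cluster 1, 6.50 CPM in cluster 3 and at most 3.69 CPM elsewhere. Among 5 astrocyte markers only *Slc1a3* reached 20 CPM, with *Aqp4* at 0.0283 CPM, and none of 4 microglial, 3 endothelial and 3 fibroblast or pericyte markers did.

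All 9 genes were detected, and their levels spanned from 7.23 to 1195 CPM. *Nlgn1* alone held 58.6% of the UMIs of the 9 genes, and only 86 genes of the whole matrix had more UMIs. The neuroligins together were at 1324 CPM, the LRRTMs at 425 CPM and the neurexins at 290 CPM, so that the genes of the postsynaptic partners gave 6.03 UMIs for each neurexin UMI (5.96 to 6.09). Without *Nlgn1* this ratio was 1.91 (1.89 to 1.93).

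Of the presynaptic genes, *Nrxn3* (chromosome 12 of GRCm39, 88689646 to 90301709, plus strand) had 29129 UMIs, a level of 206 CPM (95% exact Poisson interval 204 to 209). *Nrxn2* (chromosome 19, 6468761 to 6594199, plus strand) had 11824 UMIs, or 83.8 CPM (82.3 to 85.3). The library thus held 2.46 *Nrxn3* UMIs for each *Nrxn2* UMI (2.41 to 2.52). UMIs from nuclear RNA can come from introns as well as exons, and *Nrxn3* spans 1612 kb against 125 kb for *Nrxn2*. Per 100 kb of gene span the order turned, with 66.8 CPM for *Nrxn2* and 12.8 CPM for *Nrxn3*.

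Of the neuroligins, *Nlgn1* (chromosome 3, 25480379 to 26386609, minus strand) was at 1195 CPM (1189 to 1201). *Nlgn3* (X chromosome, 100342750 to 100369570, plus strand) was at 84.5 CPM (83.0 to 86.0), and *Nlgn2* (chromosome 11, 69713948 to 69728613, minus strand) at 44.1 CPM (43.0 to 45.2). *Nlgn3* is X-linked and is known for variants found in autism, and *Nlgn2* is the family member tied to GABAergic and glycinergic synapses. Per gene, *Nlgn1* was far above its relatives. Per 100 kb of span it was the lowest of the 3, at 132 CPM, against 301 CPM for *Nlgn2* and 315 CPM for *Nlgn3*.

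Of the LRRTMs, *Lrrtm3* (chromosome 10, 63763854 to 63926056, minus strand) was highest, at 268 CPM (265 to 270), followed by *Lrrtm4* (chromosome 6, 79995860 to 80787124, plus strand) at 130 CPM (129 to 132). *Lrrtm4* is the relative known to bind heparan sulfate proteoglycans. *Lrrtm2* (chromosome 18, minus strand), which binds neurexins with high affinity, was at 19.96 CPM (19.2 to 20.7). *Lrrtm1* (chromosome 6, 77218820 to 77235200, plus strand) had 1021 UMIs and a level of 7.23 CPM (6.80 to 7.69), the lowest of the 9. Per 100 kb of span *Lrrtm2* had the highest value of all 9 genes, 329 CPM (317 to 341), which overlapped in its interval with *Nlgn3* (309 to 321) but not with *Nlgn2* (293 to 308).

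The order by length depends on which length is used. Per kb of exon, *Nlgn1* ranked highest at 84.7 CPM, then *Lrrtm3* at 56.6 CPM, *Lrrtm4* at 21.2 CPM and *Nrxn3* at 16.3 CPM, and *Lrrtm2*, highest per span, ranked eighth at 3.29 CPM. All 9 genes changed rank between the scales. In the order per gene, only *Nlgn3* and *Nrxn2* were neighbours with overlapping intervals. Against 10754 genes with at least 5 CPM and a position, the CPM of *Nlgn1* lay above 99.2% and that of *Lrrtm1* above 6.81%. Per 100 kb of span, *Nlgn1* lay above 57.1% of them, *Lrrtm2* above 78.1% and *Nrxn3* above 5.82%.

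**Figure D1:**
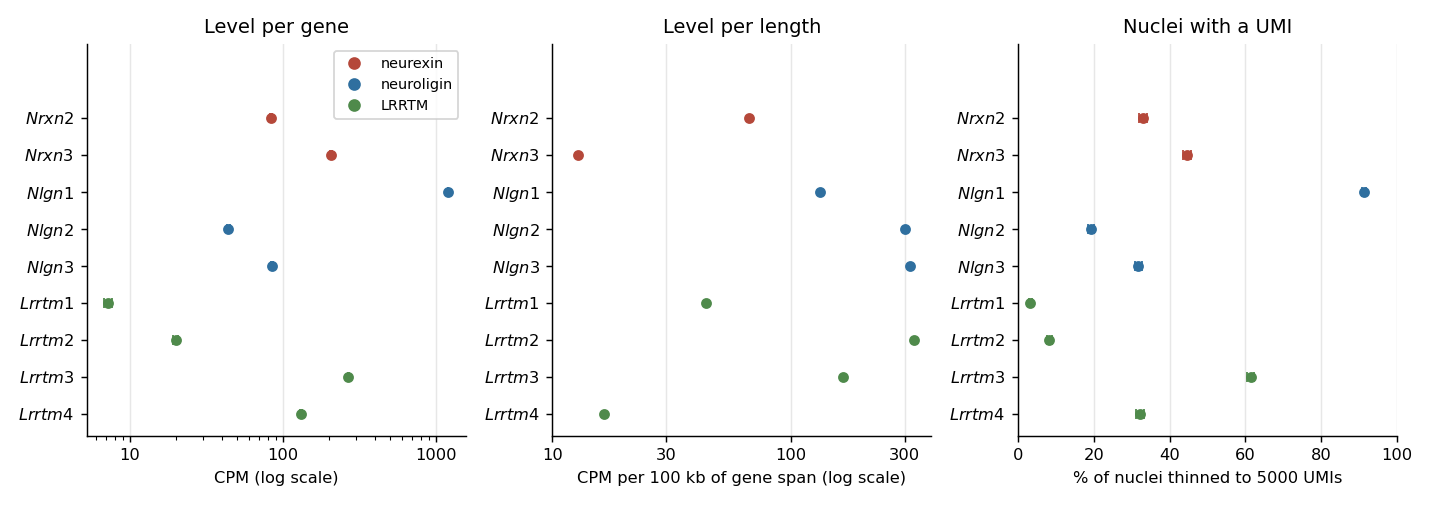
Level of the 9 genes in the library as CPM (left, log axis, bars are 95% exact Poisson intervals), as CPM per 100 kb of gene span (middle, log axis), and as the percent of 8760 nuclei thinned to 5000 UMIs that have a UMI (right, bars are 95% exact binomial intervals). Colors mark the 3 families. *Nlgn1* stood highest per gene and by share of nuclei, at 1195 CPM and 91.3%, while *Lrrtm2*, *Nlgn3* and *Nlgn2* stood highest per length.

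Shares of nuclei were compared at an equal depth of 5000 UMIs, drawn at random from each nucleus, and the 157 nuclei with fewer UMIs were not used. *Nlgn1* was then detected in 91.3% of 8760 nuclei (95% exact binomial interval 90.7 to 91.9), *Lrrtm3* in 61.4% (60.4 to 62.4) and *Nrxn3* in 44.7% (43.6 to 45.7). *Nrxn2* was detected in 32.9%, *Lrrtm4* in 32.1% and *Nlgn3* in 31.8%, shares whose intervals overlapped. *Nlgn2* was detected in 19.3%, *Lrrtm2* in 8.28% and *Lrrtm1* in 3.24% of the nuclei. Without thinning the shares ran from 10.6% for *Lrrtm1* to 95.7% for *Nlgn1*. As a gauge of RNA from other nuclei, free or in doublets, 4 Y-linked genes, at 72.9 CPM in the library, were read in nuclei of cluster 1 that held *Xist*. A Y-linked UMI was found in 39 of 1590 such thinned nuclei, 2.45% (1.75 to 3.34), and the Y-linked level in cluster 1 was 0.0822 of that in the other nuclei (0.0697 to 0.0963).

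The thinned nuclei held UMIs of a mean of 3.25 of the 9 genes and a median of 3. In 170 nuclei, 1.94%, none was detected, and 5 nuclei held 8 of them and 0 held all 9. The variance between nuclei was 3.17 times the mean for *Nrxn3*, 3.35 times for *Nlgn1* and 2.14 times for *Lrrtm4*, more than counting alone gives. The other 6 genes lay between 1.03 and 1.57. For an equal relative spread this ratio rises with the mean. The mean was 5.79 UMIs for *Nlgn1*, 1.08 for *Nrxn3* and 0.595 for *Lrrtm4*, so the ratio does not rank the genes by spread. *Nrxn3* was at 0 in 55.3% of the thinned nuclei, against 33.9% for a Poisson count of the same mean. Without thinning, the tenth of the nuclei with the most *Lrrtm4* UMIs held 51.0% of them, and the highest count in a nucleus was 140 for *Nlgn1*, 58 for *Nrxn3* and 47 for *Lrrtm4*.

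Between the re-derived clusters, the 2 neurexins differed in where they were high and low. All 7 neuroligin and LRRTM genes and *Nrxn3* had their lowest level in cluster 1, and *Nrxn2* its highest. The highest cluster was at least 2 times the lowest for 9 of the 9 genes, where 42.8% of the 10763 genes with at least 5 CPM did so. With cluster 1 left out it was 5 of 9, namely *Nrxn2*, *Nrxn3*, *Lrrtm2*, *Lrrtm3* and *Lrrtm4*, beside 29.6% of those genes. The clusters were made from these same nuclei, and *Nrxn3*, *Nlgn1*, *Lrrtm3* and *Lrrtm4* were among the 3000 variable genes used, so these values describe the clusters. Clustering without the 9 genes also gave 8 clusters, and ranges from 2.48 for *Nlgn2* to 25.9 for *Lrrtm4*.

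*Nrxn2* was at 174 CPM (168 to 179) in cluster 1, with 88.8 CPM in cluster 0, 85.1 CPM in cluster 7, 83.0 CPM in cluster 5, 76.3 CPM in cluster 3, 47.5 CPM in cluster 6, 45.4 CPM in cluster 2 and 44.1 CPM in cluster 4. Cluster 1 stood alone at the top, each neighbouring pair among clusters 0, 7, 5 and 3 had overlapping intervals, and so did those among clusters 6, 2 and 4. The level in cluster 1 was 2.60 times that in all other nuclei (2.50 to 2.70), and *Nrxn2* was the 1 gene of the 9 at 1.5 or more there, a size that 18.9% of all tested genes reached. The part of the *Rbfox3* and *Gad1* signal of clusters 1 and 7 in the neurexin levels there was not tested. Other neuronal markers did not all share that signal. *Syt1* and *Snap25* were lowest in cluster 1, at 13.6 and 2.57 CPM, while *Camk2a* was at 1.66 of the other nuclei there. In cluster 7, *Syt1* was at 73.5 CPM and *Snap25* at 6.47 CPM, against 109 and 8.24 CPM in the library.

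*Nrxn3* was at 933 CPM (892 to 974) in cluster 7, the smallest cluster, and at 430 CPM (420 to 440) in cluster 3. It was at 259 CPM in cluster 0, 187 CPM in cluster 5, 184 CPM in cluster 6, 115 CPM in cluster 4, 112 CPM in cluster 2 and 106 CPM (101 to 110) in cluster 1. Clusters 7, 3 and 0 each stood apart from the next, clusters 5 and 6 did not, and the 3 lowest clusters were neighbours with overlapping intervals. The ratio of *Nrxn3* to *Nrxn2* UMIs ran from 0.607 in cluster 1 (0.577 to 0.639) to 10.96 in cluster 7 (9.42 to 12.8). Cluster 1 was thus the only cluster with more *Nrxn2* than *Nrxn3* UMIs. Other genes of chromosome 12 also differed between clusters, in cluster 1 in the opposite direction to *Nrxn3*. Over 262 such genes, all with at least 20 CPM in the library, the median log2 ratio to all other nuclei was 0.53 in cluster 1. It was -0.53 in cluster 2, -0.41 in cluster 4, -0.48 for cluster 6, and 0.15 in cluster 7, where *Nrxn3* was highest. Their part in the *Nrxn3* levels was not tested. The chromosomes of the other 8 genes moved by at most 0.27 in size, the largest being chromosome 19 of *Nrxn2* in cluster 1 and chromosome 11 of *Nlgn2* in cluster 3.

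*Nlgn1* was at 1860 CPM (1844 to 1877) in cluster 0, 1532 CPM in cluster 3, 1341 CPM in cluster 6, 1169 CPM in cluster 5, 1087 CPM in cluster 2, 1053 CPM in cluster 7, 1006 CPM in cluster 4 and 400 CPM (391 to 408) in cluster 1. Its clusters differed beyond counting error from their neighbours in this order, except that cluster 7 overlapped with clusters 2 and 4, and cluster 1 was at 0.298 of the other nuclei (0.291 to 0.304). *Nlgn3* was at 28.1 CPM (26.0 to 30.4) in cluster 1 and between 72.6 and 107 CPM elsewhere. *Nlgn2* was at 21.8 CPM (19.9 to 23.9) in cluster 1 and between 41.2 and 54.2 CPM elsewhere. Both were lower in cluster 1 than in every other cluster beyond counting error, and the other 7 clusters differed among themselves by 1.47 times for *Nlgn3* and 1.32 times for *Nlgn2* at most. *Nlgn1* held between 86.8% and 92.5% of the neuroligin UMIs in every cluster.

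*Lrrtm3* was at 49.2 CPM (46.3 to 52.2) in cluster 1 and 120 CPM (106 to 136) in cluster 7, whereas the remaining 6 clusters lay between 281 and 340 CPM. *Lrrtm4* was at 240 CPM (231 to 249) in cluster 6, 180 CPM in cluster 0, 159 CPM in cluster 4, 139 CPM in cluster 2, 133 CPM in cluster 5, 99.98 CPM in cluster 3, 40.2 CPM in cluster 7 and 9.25 CPM (8.03 to 10.6) in cluster 1. *Lrrtm2* was at 3.11 CPM (2.42 to 3.94) in cluster 1, 6.01 CPM (3.20 to 10.3) in cluster 7 from 13 UMIs, 12.3 CPM in cluster 3, and between 21.9 and 28.9 CPM in the rest. *Lrrtm1* was at 1.40 CPM (0.951 to 1.99) in cluster 1, from 31 UMIs, and between 6.23 and 10.2 CPM elsewhere, where most neighbours overlapped. *Lrrtm2*, *Lrrtm3* and *Lrrtm4* shared the order of their 3 lowest clusters, 1, 7 and 3, though the *Lrrtm2* intervals of clusters 1 and 7 overlapped.

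In cluster 1 the 4 LRRTMs were at 0.0605 (*Lrrtm4*), 0.135 (*Lrrtm2*), 0.159 (*Lrrtm3*) and 0.168 (*Lrrtm1*) of their levels in the other nuclei, and the neuroligins at 0.296 (*Nlgn3*), 0.298 (*Nlgn1*) and 0.453 (*Nlgn2*). With *Nrxn3* at 0.469, 8 of the 9 genes were at most 0.67 there, a size that 15.4% of the 10763 tested genes reached, and 8 of the 9 had their lowest level in cluster 1, as did 19.2% of those genes. The median over all those genes was 1.12. With at most 5% mitochondrial UMIs, *Nrxn3* was at 0.203 in cluster 1 (0.172 to 0.239), *Lrrtm4* at 0.0305 and *Lrrtm1* at 0.290 (0.105 to 0.641). The ratio of *Lrrtm4* was below the 0.0822 of the Y-linked gauge. Free RNA, doublets and transcripts of the nuclei themselves cannot be told apart in its cluster 1 level. Its range of 25.9 times between clusters is therefore uncertain at the low end. Without the nuclei that the doublet caller Scrublet marked, *Lrrtm4* in cluster 1 was at 0.0284 of the other nuclei and its range was 54.4.

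**Figure D2:**
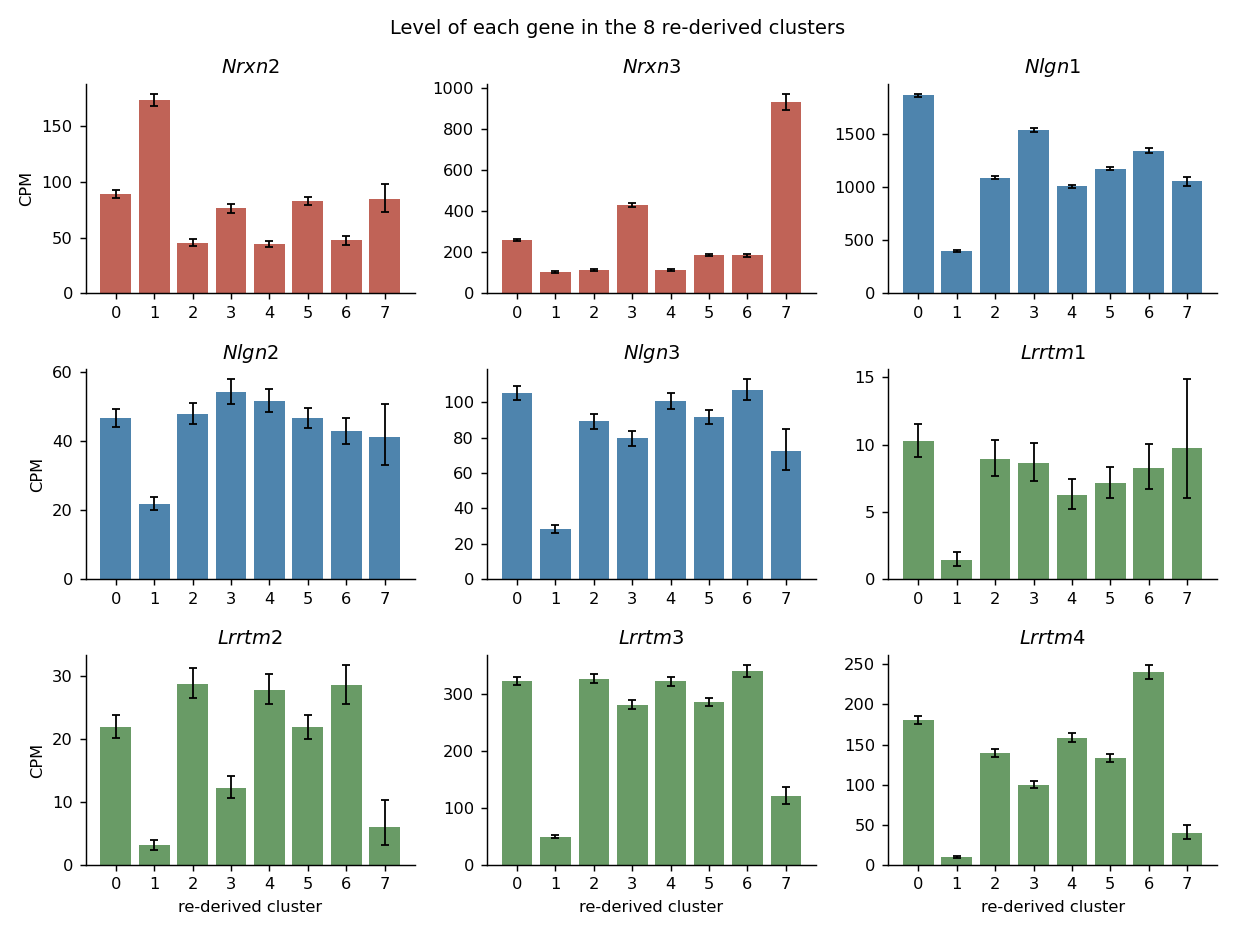
CPM of each gene (vertical axes, from 0) in the 8 re-derived clusters (horizontal axes), with 95% exact Poisson intervals. Colors mark neurexins (red), neuroligins (blue) and LRRTMs (green). Cluster 1 has the lowest bar for 8 of the 9 genes and the highest for *Nrxn2*, and *Nrxn3* is highest in cluster 7.

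The balance of postsynaptic to presynaptic transcripts differed accordingly. It was 10.99 UMIs to 1 in cluster 2 (10.6 to 11.4), 10.51 in cluster 4, 9.09 in cluster 6, 7.32 in cluster 0, 6.49 in cluster 5, 4.09 in cluster 3, 1.83 in cluster 1 (1.78 to 1.89) and 1.32 in cluster 7 (1.248 to 1.40). Clusters 1 and 7 were thus nearest to equal counts, with different levels on each side. Cluster 1 had 279 CPM of neurexins, close to the library, with 62.9 CPM of LRRTMs, whereas cluster 7 had 1018 CPM of neurexins with 176 CPM of LRRTMs. Without *Nlgn1* the neurexins outnumbered their partners in both, at 0.404 partner UMIs for each neurexin UMI in cluster 1 and 0.285 in cluster 7.

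Most nuclei held a UMI of each side. After thinning, 62.8% of the nuclei had a neurexin, 93.6% a neuroligin and 71.4% an LRRTM, and 43.1% had all 3 classes (42.02 to 44.1), against 41.95% as the product of the 3 shares. Neurexin with neuroligin was found in 59.0% of nuclei and neurexin with LRRTM in 43.8%, against products of 58.7% and 44.8%. Neuroligin with LRRTM was found in 70.0%, above its product of 66.8%. A neuroligin or LRRTM without any neurexin was found in 35.3% of nuclei, and a neurexin without either in 3.08%. Without thinning 70.1% of nuclei held all 3 classes, so these shares depend on depth, and a nucleus without a UMI is not thereby without the transcript.

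By cluster, all 3 classes were found in 61.6% of nuclei in cluster 3, 57.6% in cluster 0, 55.2% in cluster 5, 53.2% in cluster 6, 38.7% in cluster 4, 38.5% in cluster 2, 34.6% in cluster 7 and 11.2% (9.70 to 12.7) in cluster 1. In cluster 1 the missing class was mostly the LRRTMs, with a UMI in 19.0% of nuclei, while 71.9% had a neuroligin and 66.6% a neurexin. In clusters 2 and 4 it was the neurexins, with a UMI in 43.8% and 45.4% of nuclei. Of the 270 nuclei with a neurexin and neither partner, 257 were in cluster 1, 15.1% of its nuclei. In clusters 2 and 6 such nuclei were 0 of 1356 and 0 of 680, with upper limits of 0.272% and 0.541%. By gene, *Lrrtm4* was found in 2.64% of cluster 1 nuclei, a share within the interval of the Y-linked gauge (1.75 to 3.34). Its level in the library, 130 CPM, was above the 72.9 CPM of the Y-linked genes, so these shares are not directly comparable. The source of its UMIs there was not tested. *Lrrtm2* was found in 0.881% and *Lrrtm1* in 0.528%. Their levels in the library were lower than that of the Y-linked genes, so these shares cannot be set against the gauge, and their ratios of level in cluster 1, 0.135 (0.105 to 0.171) and 0.168 (0.114 to 0.240), lay above its 0.0822 (0.0697 to 0.0963). *Lrrtm3*, in 15.8%, *Nlgn3*, in 11.1%, and *Nlgn2*, in 9.45%, were above the share of the gauge. Their library levels, 268, 84.5 and 44.1 CPM, also differed from that of the Y-linked genes, so their shares are not directly comparable with it either. Their ratios of level in cluster 1, 0.159, 0.296 and 0.453, lay above the 0.0822 of the gauge.

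**Figure D3:**
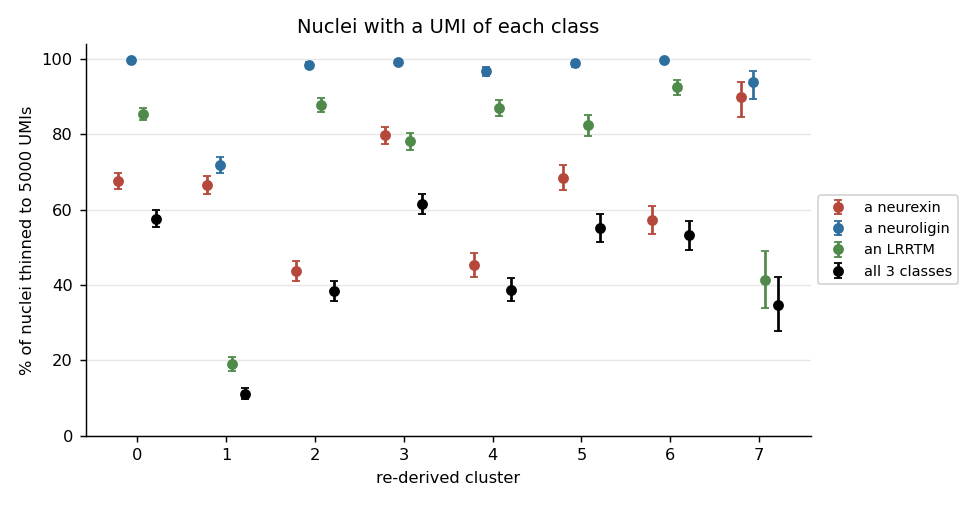
Percent of nuclei thinned to 5000 UMIs (vertical axis) that hold a UMI of a neurexin, a neuroligin, an LRRTM or all 3 classes, in each re-derived cluster (horizontal axis), with 95% exact binomial intervals. Cluster 1 has the lowest share with all 3 classes, 11.2%, and cluster 3 the highest, 61.6%.

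For single pairs of genes, the nuclei with a UMI of both were divided by the number expected from the share of each gene. Over the library the 2 neurexins differed in their co-detection with partners. All 7 pairs of *Nrxn2* with a neuroligin or LRRTM were below 1, with a median of 0.863, and for 6 of them the interval lay below 1, as it did for 9.14% of 9195 genes with *Nrxn2*. *Nrxn2* with *Lrrtm2* was found in 2.05% of nuclei, 0.754 of the expected number (0.648 to 0.871), and *Nrxn2* with *Lrrtm4* in 8.94%, or 0.844 (0.789 to 0.903). Among the 6 partners detected in at least 5% of nuclei, 1 was at most 0.8 with *Nrxn2*, where 0.87% of 9195 genes were. Of those genes, 0.348% had a lower ratio with *Nrxn2* than *Lrrtm2* had, 2.12% a lower one than *Lrrtm4*, and 19.6% a lower one than *Nlgn1*.

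The pairs of *Nrxn3* had a median of 1.05, and 3 of the 7 had an interval above 1, beside 8.96% of 9195 genes with *Nrxn3*. *Nrxn3* with *Lrrtm4* was found in 16.4% of nuclei, 1.14 times the expected number (1.09 to 1.20), *Nrxn3* with *Lrrtm3* in 28.8%, or 1.05 (1.02 to 1.09), and *Nrxn3* with *Nlgn1* in 42.7%, or 1.05 (1.02 to 1.07). These 3 ratios lay above those of 97.7%, 86.1% and 85.1% of the genes. None of the 6 was at 1.25 or more, which 0.609% of 9195 genes were. *Nrxn2* and *Nrxn3* themselves were found together in 14.9% of nuclei, at 1.01 of the expected number (0.958 to 1.06). The 21 pairs among neuroligins and LRRTMs had a median of 1.09 and ran from 0.969 to 1.36, and for 13 of them the interval lay above 1, beside 7.78% of the pairs of these 7 genes with all detected genes. The highest was *Nlgn3* with *Lrrtm1*, 1.36 (1.13 to 1.62) from 123 nuclei.

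When the number expected was summed within the clusters, the ratios lay nearer to 1. The 7 pairs of *Nrxn2* then had a median of 0.974 and the 7 of *Nrxn3* a median of 1.00, and no interval of a partner pair lay below 1. *Nrxn2* with *Nlgn1* and with *Lrrtm4* turned from below 1 to 1.01 and 1.02. The pair that kept an interval above 1 was *Nrxn3* with *Lrrtm4*, at 1.10 (1.04 to 1.15), a value above that of 99.03% of the 9195 genes with *Nrxn3*. Within cluster 0 this pair was found in 23.3% of nuclei, at 1.18 of the expected number (1.08 to 1.28), and in the other 7 clusters its interval held 1. Outside cluster 1 as a whole the pair was at 1.05 (0.997 to 1.10). Within cluster 1, 2 other pairs had an interval above 1. *Nrxn3* with *Lrrtm3* was at 1.28 there (1.04 to 1.56), and *Nrxn3* with *Nlgn1* at 1.13 (1.03 to 1.24). The 21 pairs among neuroligins and LRRTMs had a median of 1.01 within clusters, and only *Nlgn3* with *Lrrtm1* kept an interval above 1, at 1.20 (1.00 to 1.44). Outside cluster 1, with the expected number taken over the remaining nuclei, the median was 0.983 for *Nrxn2* and 0.999 for *Nrxn3*. Depth within the thinned nuclei was equal, and no p was taken across nuclei.

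**Figure D4:**
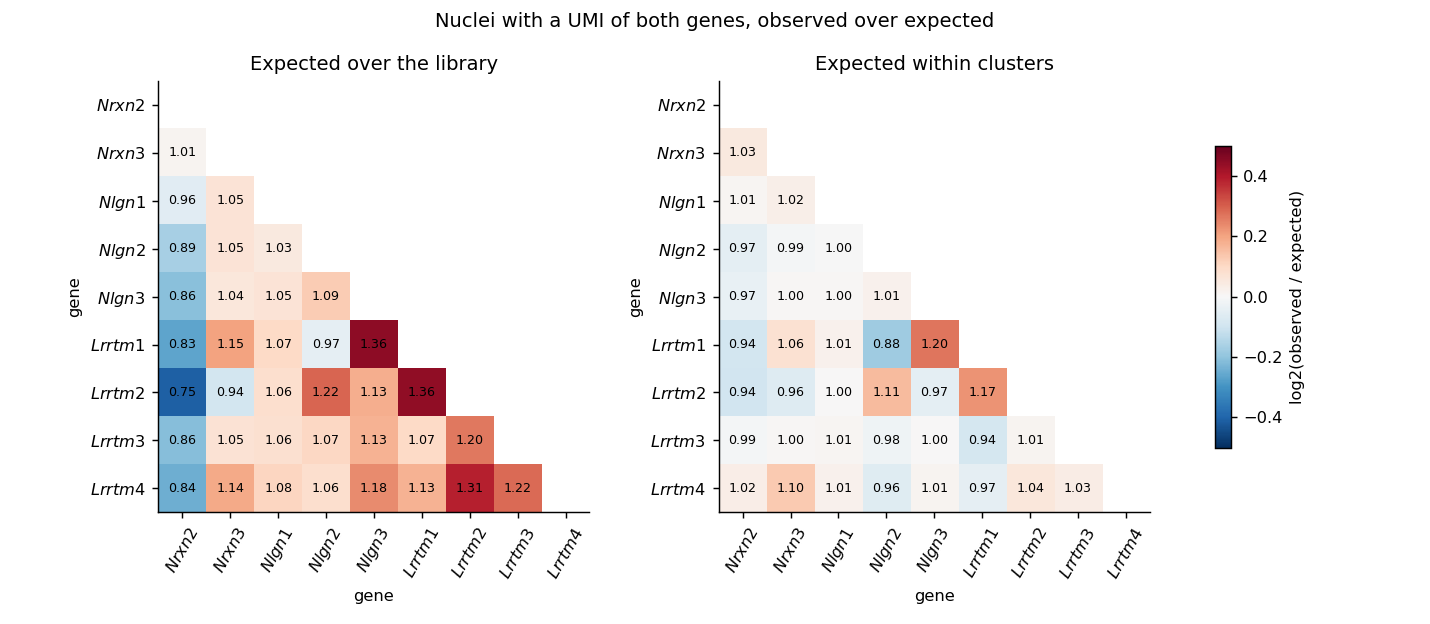
Nuclei with a UMI of both genes, observed over expected, for the 36 pairs of the 9 genes (both axes list the genes). Colors give log2 of the printed ratio, with the number expected taken over the library (left) and within re-derived clusters (right). Over the library the *Nrxn2* pairs with neuroligins and LRRTMs lie below 1, between 0.754 and 0.962, and within clusters between 0.936 and 1.02.

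The cell cycle phases differed little in these genes. S nuclei over G1 nuclei ran from 0.748 for *Lrrtm2* (0.6702 to 0.834) to 1.20 for *Nrxn3* (1.16 to 1.24), and 0 of 9 genes passed 1.5 times in either direction, where 5.28% of 10750 genes did. G2/M nuclei over G1 nuclei ran from 0.861 for *Lrrtm2* (0.790 to 0.939) to 1.33 for *Lrrtm4* (1.28 to 1.37), again with 0 of 9 past 1.5 times and 5.07% of all genes. *Lrrtm4* was at 113 CPM in 2661 G1 nuclei, 106 CPM in 2300 S nuclei and 150 CPM in 3956 G2/M nuclei. The G2/M nuclei were also deeper, with a median of 16474 UMIs against 11780 in G1 nuclei, and the part of depth was not tested. The median over the 9 genes was 1.03 for both comparisons.

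The OPCs came from pups of either sex, and *Nlgn3* is X-linked, so nuclei with *Xist* and no Y-linked UMI were set beside nuclei with a Y-linked UMI and no *Xist*. In the 1934 *Xist*-only nuclei *Nlgn3* was at 44.2 CPM, against 93.7 CPM in the 2309 Y-only nuclei, a ratio of 0.472 (0.442 to 0.504). The same direction held for 8 of the 9 genes, with ratios from 0.295 to 0.522, where 12.4% of genes were at most 0.67, and *Nrxn2* was at 1.99. Of the *Xist*-only nuclei 81.4% were in cluster 1, and of the Y-only nuclei 45.4% were in cluster 3, so sex and cluster cannot be told apart in these values. Within cluster 0, with 40 *Xist*-only and 759 Y-only nuclei, *Nlgn3* was at 1.09 (0.838 to 1.39) and 8 of the 9 intervals held 1, the exception being *Nrxn3* at 1.18 (1.01 to 1.38). Within cluster 5, with 219 and 234 nuclei, *Nlgn3* was at 0.756 (0.6701 to 0.851), *Nrxn3* at 0.632 (0.580 to 0.689) and *Nrxn2* at 1.53 (1.36 to 1.72). Within cluster 5 the nuclei were deep, with medians of 25877 and 32100 UMIs in these groups.

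Depth and RNA quality moved with some of the genes. In the quartile of nuclei with the most UMIs, *Lrrtm4* was at 159 CPM, against 73.1 CPM in the quartile with the fewest, a ratio of 2.17 (2.05 to 2.30), and *Lrrtm2* was at 1.82 (1.58 to 2.11). *Nrxn2* and *Nrxn3* were lower in the deep nuclei, at 0.715 (0.676 to 0.755) and 0.750 (0.725 to 0.776). In the quartile of nuclei with the highest share of mitochondrial UMIs, *Nrxn3* was at 0.631 (0.610 to 0.652) and *Nlgn1* at 0.725 (0.715 to 0.735) of the quartile with the lowest share, while the other 7 genes lay between 0.848 and 1.35. Cluster 1 made up 6.77% of the deepest quartile, and cluster 3 29.9% of the quartile with the lowest mitochondrial share. The part of depth and RNA quality in the cluster levels was not tested.

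**Figure D5:**
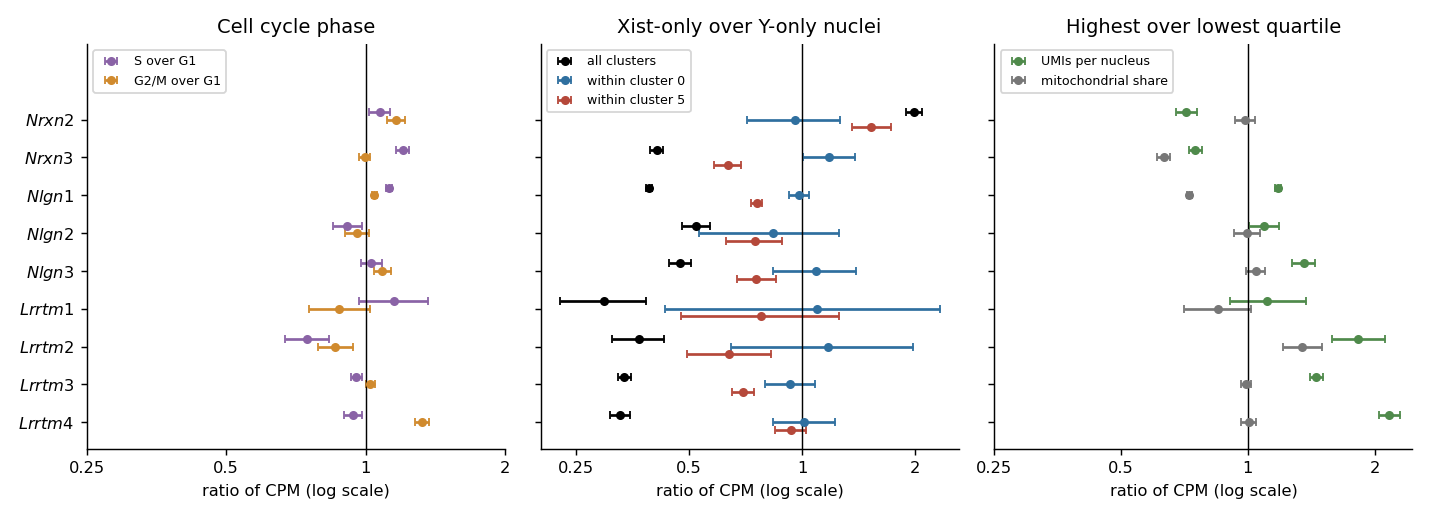
Ratio of CPM between groups of nuclei of the library (log axes, 95% exact conditional intervals) for each gene, between cell cycle phases (left), between *Xist*-only and Y-only nuclei over all clusters and within clusters 0 and 5 (middle), and between the highest and lowest quartile of UMIs or of mitochondrial share (right). Phase ratios stay between 0.748 and 1.33, and the *Xist* to Y ratios of 8 genes lie below 0.53 over all clusters but between 0.835 and 1.18 within cluster 0.

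Of the LRRTM genes, 3 lie within the span of an α-catenin gene on the opposite strand. *Lrrtm1* lies within *Ctnna2*, *Lrrtm2* within *Ctnna1* and *Lrrtm3* within *Ctnna3*. The default pipeline used by the authors assigns reads by strand, and how the reads of each pair were split was not checked here. *Ctnna2* was at 713 CPM and *Lrrtm1* at 7.23 CPM, and both were low in cluster 1, at 0.303 (0.295 to 0.311) and 0.168 (0.114 to 0.240) of the other nuclei. *Ctnna3* was at 58.4 CPM, below the 268 CPM of *Lrrtm3*, and was also low in cluster 1, at 0.180 (0.159 to 0.203). *Ctnna1* was at 137 CPM and went the other way from *Lrrtm2*, with 1.89 (1.83 to 1.95) in cluster 1 against 0.135. The catenins bind cadherins to the actin cytoskeleton.

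Genes of other families that act with neurexins and their partners were taken from 7 lists of 76 genes, of which 41 had at least 20 CPM and 13 were below 1 CPM. Over the whole matrix, 7359 of 33696 genes had more UMIs than *Lrrtm2*, which was at 19.96 CPM. Of the neurexin ligands of other families, 6 of 14 had at least 20 CPM and 6 were below 1 CPM. They were led by the latrophilin *Adgrl3* at 1614 CPM, the secreted α-neurexin ligand *Nxph1* at 344 CPM and the dystroglycan gene *Dag1* at 138 CPM. The cerebellins *Cbln2* and *Cbln4*, secreted bridges from neurexins to glutamate delta receptors, were at 0.149 and 0.0283 CPM, and *Cbln1* at 3.41 CPM. Of the neuroligin and LRRTM regulators, 5 of 8 had at least 20 CPM, led by *Mdga2*, whose protein blocks neurexin binding to neuroligins, at 1028 CPM, the glypican *Gpc6* at 670 CPM and the sheddase *Adam10* at 133 CPM. *Gpc4*, a glypican known as a ligand of LRRTM4, was at 18.6 CPM in the library, 52.9 CPM in cluster 1 and 135 CPM in cluster 7.

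Of 18 intracellular scaffolds, 14 had at least 20 CPM, with *Magi2* at 774 CPM, *Magi1* at 674 CPM and *Cask*, a presynaptic scaffold that binds the neurexin tail, at 386 CPM. The postsynaptic scaffold *Dlg4* (PSD-95) was at 43.6 CPM and the inhibitory scaffold *Gphn* (gephyrin) at 354 CPM. Of the receptor phosphatases and their ligands, 8 of 17 had at least 20 CPM, led by *Il1rapl1*, a postsynaptic ligand of the phosphatase PTPδ, at 455 CPM, *Ptprd*, which encodes that phosphatase, at 332 CPM, and *Ntrk3*, the TrkC gene, at 218 CPM. Teneurins and FLRTs had 4 of 7, ligands of the latrophilins, led by *Tenm3* at 254 CPM, *Tenm2* at 80.3 CPM and *Flrt2* at 34.0 CPM. Netrin-G and its ligands had 4 of 5, led by *Lrrc4c* (NGL-1) at 347 CPM, *Lrrc4* at 72.5 CPM and *Lrrc4b* at 67.9 CPM. The contactin-associated relatives of the neurexins had 0 of 7, with *Cntnap4* at 7.26 CPM, *Cntnap2* at 4.14 CPM and *Cntnap1* at 2.10 CPM.

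In cluster 1, 25 of the 53 listed genes with at least 5 CPM were at most 0.67 of the other nuclei and 7 were at least 1.5, beside 15.4% and 18.9% of all tested genes. The lowest level was in cluster 1 for 21 of the 53, as it was for 19.2% of all tested genes. Among those low there were *Il1rapl1*, at 0.0814, *Nxph1*, at 0.266, *Tenm3*, at 0.336 and *Magi2*, at 0.420. The 7 high there were *Cntnap4*, at 11.9, *Gpc4*, at 4.33, *Ntng2*, at 2.86, *Tenm4*, at 2.84, *Adam17*, at 2.79, *Adgrl2*, at 2.23, and *Dlg1*, at 1.89. Named for their pattern over the 8 clusters, the genes most like *Nrxn3*, of 7354 with at least 20 CPM, were *Lrp12*, *Sox5* and *Ctnnd2* (Pearson r of log2(CPM + 1) from 0.960 to 0.971). Those most like *Nlgn1* were *Apba1*, *Ctnna2* and *Lsamp* (0.986 to 0.991), and those most like *Lrrtm4* were *Inpp5b*, *Heatr5b* and *Armh4* (0.985 to 0.987). These correlations run over 8 clusters of 1 library and are descriptions, and 92 genes reached 0.95 with *Lrrtm4*, 47 with *Nlgn1* and 6 with *Nrxn3*. They do not weigh the size of a difference between clusters. *Heatr5b* ran only from 35.3 to 49.3 CPM over the clusters and *Lrp12* from 35.1 to 61.5 CPM, while *Armh4* ran from 5.87 to 174 CPM.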

How the data were processed

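Nuclei of the cultured BB-p53n OPCs were profiled by 10x snRNA-seq (3' v3.1). The authors ran Cell Ranger 8.0.1 with mm39 to align reads and call barcodes, and the counts they deposited are unnormalized UMIs of each gene in each barcode. No filter on mitochondrial UMIs was applied here. The methods name the default pipeline, which in this version counts intronic as well as exonic reads, on the strand of the gene. Positions came from GENCODE M39 on GRCm39, the build of mm39, and 33185 of 33696 genes matched.

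From the deposited counts, barcodes with 2000 to 8000 genes were kept. Clusters were re-derived in Seurat 5.3.0 (R 4.3.3) with settings named in the methods, which are 3000 variable genes after log normalization (scale factor 1000), total counts regressed out, 20 principal components, 200 neighbors and a resolution of 1.0. The nuclei clustered here are not those of the study, which keeps fewer. A limit of 5% mitochondrial UMIs leaves 1954 nuclei, the number the study lists after filtering, so the clusters are not the study's and may differ from them for this reason. Levels are summed UMIs as CPM with exact Poisson intervals. Ratios have exact conditional intervals, and shares, after thinning to 5000 UMIs, exact binomial intervals (Clopper-Pearson), all at 95%. PCR duplicates are removed by UMIs, but the intervals cover counting error only. Co-detection intervals carry the error of the observed nuclei only. Background shares were taken over genes with at least 5 CPM or detected in at least 5% of thinned nuclei. No test was run, since nuclei of 1 library are not replicates.

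No nuclei were removed as doublets. Scrublet in scanpy 1.11.5 marked 1466 of 8917 nuclei, 16.4%, and their removal is an alternative. That count depends on where Scrublet set its automatic threshold, while a cut at the 8% highest scores does not. Phases used 43 S and 54 G2/M genes. All 9 genes were described in full, with the up to 3 highest genes of each partner list. A few listed genes outside that rule (among them the cerebellins, *Gpc4*, *Dlg4*, *Gphn*, *Ntng2*, *Tenm4*, *Adam17*, *Adgrl2* and *Dlg1*) and the catenins were named after their values were seen. The genes, lists and alternatives were chosen with earlier results of these data known. The ratios, thinning and co-detection were tested on simulated data.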

Additional observations from a re-analysis of the deposited data

How the results depend on the processing

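No paired analysis was possible because the values come from 1 library and no test. The range between clusters stayed at 2 or more for all 9 genes under every alternative listed at the outset, and for 5 of 9 outside cluster 1, an alternative chosen after seeing the data, as was removing the nuclei that Scrublet called. The summed level of the 9 genes, 2039 CPM, was 2433 CPM with at most 5% mitochondrial UMIs, 2027 CPM without the 8% highest Scrublet scores, 1992 CPM without the nuclei Scrublet called, 2025 CPM with 3000 to 7000 genes and 2177 CPM over a total without mitochondrial UMIs. The share of nuclei with all 3 classes, 43.1%, was 51.0% with at most 5% mitochondrial UMIs, 41.6% and 40.3% without the high-scoring and the called nuclei, 27.0% thinned to 3000 UMIs, 70.1% without thinning and 50.8% outside cluster 1. The median *Nrxn2* pair, 0.863, was 0.9501 with at most 5% mitochondrial UMIs, 0.999 without thinning, 0.974 within clusters and 0.983 outside cluster 1, and the median *Nrxn3* pair, 1.05, was 1.11 without thinning. With at most 5% mitochondrial UMIs the median G2/M to G1 ratio was 1.10 and the median *Xist* to Y ratio 0.440, against 1.03 and 0.390.

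Of the neurexin pairs with partners whose library interval did not hold 1, those that crossed 1 were *Nrxn2* with *Lrrtm2*, *Nlgn2* and *Nlgn3* without thinning (1.01, 1.03 and 1.02), *Nrxn2* with *Nlgn2* at 3000 UMIs (1.04), *Nrxn2* with *Nlgn1* and *Lrrtm4* within clusters (1.01 and 1.02), and, outside cluster 1, *Nrxn2* with *Nlgn1* (1.01) and *Nrxn3* with *Lrrtm3* (0.973). Of the pairs whose interval held 1, *Nrxn3* with *Lrrtm2*, at 0.938, was at 1.11 (1.06 to 1.16) without thinning, and *Nrxn3* with *Nlgn2* and *Nlgn3* also crossed 1, each by an interval that held 1. The cause of these changes was not tested. *Lrrtm4* in cluster 1, at 0.0605 of the other nuclei, was at 0.0305 with at most 5% mitochondrial UMIs, 0.0388 with 3000 to 7000 genes and 0.0309 without the 8% highest Scrublet scores, and its range between clusters was 52.3, 39.7 and 50.2. With at most 5% mitochondrial UMIs the range was 15.2 for *Nrxn3* and 4.03 for *Lrrtm1*. With 20 neighbors the range was 24.3 for *Nrxn3*, 54.8 for *Lrrtm4* and 10.4 for *Lrrtm3*. That setting gave 16 clusters in place of 8, and more clusters can widen a range, so these values are not directly comparable. Of all genes, 35.3% had a range of at least 2 where at least 20 CPM was required. The cluster levels with the widest intervals for their size were *Lrrtm2* in cluster 7, from 13 UMIs, and *Lrrtm1* in clusters 7 and 1, from 21 and 31 UMIs.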
